A study of Mus musculus with 4 samples.

Results

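The forkhead, SOX and ETS genes are 3 families of transcription factors that carry much of the gene regulation of endothelial cells. They were collected by gene symbol alone: Foxa to Foxs genes with a number, numbered Sox genes, Etv1 to Etv6, Elk1, Elk3 and Elk4, Elf1 to Elf5, and Ets1, Ets2, Erg, Fli1 and Gabpa. The rule found 83 of the 38087 listed genes, of which 44 were forkhead (Fox), 20 SOX and 19 ETS genes. RNA sequencing had been run on endothelial cells sorted as eGFP+ and CD31+ from the ventricles of C57BL/6 mice. The 2 Gata4 KO libraries came from mice with loxP-flanked Gata4, the Tie2-CreERT2 transgene and an eGFP Cre reporter in the Rosa locus. The 2 control libraries came from mice with the same Cre and reporter. Both groups carry the Cre, and in both tamoxifen chow at 40 mg/kg body weight began at 4 weeks of age and lasted 4 weeks, with cells taken at 8 weeks. The comparison asked how transcripts of cardiac endothelium differ when Gata4, a zinc-finger factor of heart development, has been targeted in Tie2-expressing cells.

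Forkhead factors bind DNA through a winged-helix domain, SOX factors bend it with a high-mobility-group box, and ETS factors recognise a GGAA core. In endothelium, Erg and Fli1 maintain identity and junctions, the SoxF factors Sox7, Sox17 and Sox18 act in vascular and arterial development, and Foxo1 holds growth and metabolism in check downstream of insulin and VEGF signals. Ternary complex factors of the Elk group sit with serum response factor on immediate early genes and are activated by ERK.

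Every value below is a log2 value relative to the gene's own median over the 4 libraries, so absolute levels are lost and genes cannot be ranked by level. The centring makes the 2 middle values of a gene equal in size and opposite in sign. The depth of the libraries is unknown. Gata4 itself stood at -0.14 and -0.46 in the Gata4 KO libraries, against 0.48 and 0.14 in the controls. Its difference was -0.61 (SE 0.26, limma adjusted p = 0.663), which did not pass the test. Xist stood at 2.76 and 3.71 in the Gata4 KO libraries, against its lowest value in both controls, and each of 4 Y-linked genes sat at its floor in Gata4 KO libraries 1 and 2. Sex and genotype therefore cannot be told apart in these 4 libraries. The labels of both control libraries join a pair of numbers, although the title of the second gives a single one, and those of the Gata4 KO libraries give a single number. The labels do not say what the numbers stand for, and pooling, if any, cannot be told apart from genotype. All 20 endothelial identity genes varied, with list means of 0.06 and -0.02 in the Gata4 KO libraries and -0.09 and 0.01 in the controls, so the label of the cells could be checked only for an even spread and not for level.

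Many of these factors had no measured variation. One and the same value in all 4 libraries, which leaves nothing to test, was listed for 42 of the 83 genes (50.6%), beside 62% of all listed genes and 43.7% of protein-coding genes. Among the genes collected, 26 of 44 Fox genes (59.1%), 12 of 20 SOX genes (60%) and 4 of 19 ETS genes (21.1%) had one value. Fox and SOX genes were collected by any number, but ETS genes by a list of named symbols, so these shares may depend on the rule. The ETS exceptions were Etv2, the factor that specifies blood and endothelial progenitors in the embryo, Etv4, and the epithelial factors Elf3 and Elf5. Among the Fox genes, all 3 Foxa genes, which are factors of endoderm and liver, both Foxb genes, all 3 Foxi genes, both Foxl genes and both Foxr genes had one value, as did Foxp3 of regulatory T cells. Fox genes of the Foxo, Foxp, Foxk, Foxj and Foxn groups varied in 12 of 17 cases, against 6 of 27 of the other Fox genes. This grouping was not among the planned comparisons, and both Foxc genes, counted among the others, also varied. In the SOX family, one value was listed for Sox1, Sox2 and Sox3 of the neural stem cell group, Sox14 and Sox21, Sox5 and Sox6 of cartilage, Sox8, Sox11, Sox15, Sox30 and the non-coding Sox2ot. What remained were 41 varying genes: 18 Fox, 8 SOX and 15 ETS.

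**Figure D1:**
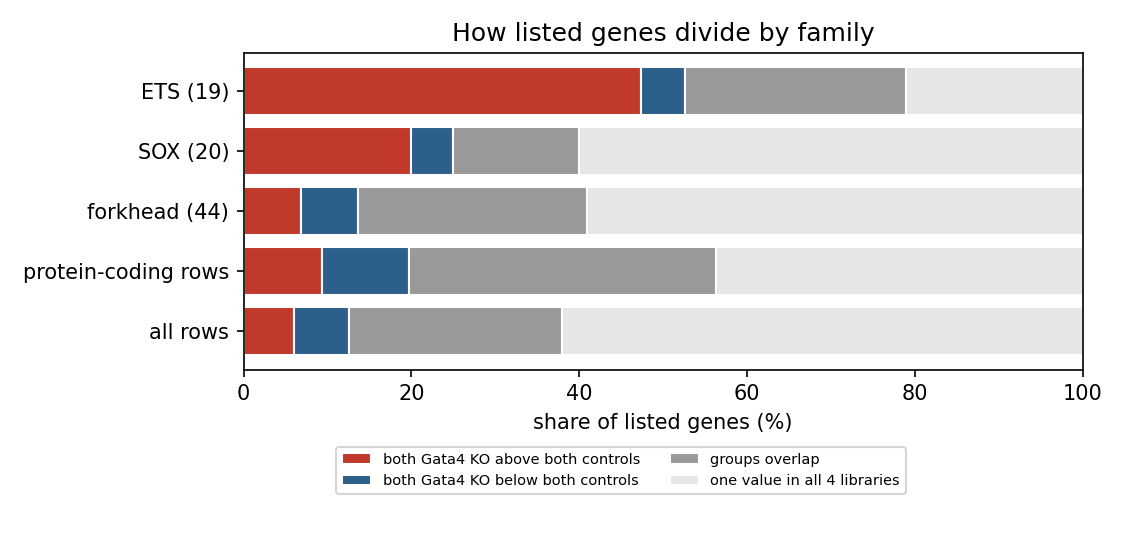
Share of listed genes (%) in each family, and over protein-coding and all listed genes, by how the 4 libraries fall: both Gata4 KO values above both controls, both below, overlapping, or one value in all 4 libraries. ETS genes have 9 above and 4 with one value, whereas Fox genes have 3 above and 26 with one value.

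Over the 41 varying genes, 16 (39.0%) had both Gata4 KO libraries above both controls and 5 (12.2%) had both below. Among all 14470 tested genes these shares were 15.7% above and 17.3% below. The median log2 difference, Gata4 KO minus control, was 0.19 over the 41 genes and -0.01 over all tested genes. No gene of the 3 families passed a limma adjusted p of 0.05, and neither did any tested gene (0%). Other variance or scaling settings called 7 to 27 of all tested genes, and leaving out genes tied at their lowest value called 51, with none of the 3 families among them. At an unadjusted p under 0.05, Ets2 and Elk3 were higher and Sox9 and Etv1 lower, that is 2 of 41 in each direction, beside 2.76% of all tested genes higher and 5.36% lower. A log2 difference of 1 or more in either direction was reached by 2 of 41, Sox9 and Etv1, beside 5.21% of all tested genes. With 2 libraries against 2, the smallest p of an exact permutation test is 0.333, and it was reached by each gene whose groups did not overlap.

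**Figure D2:**
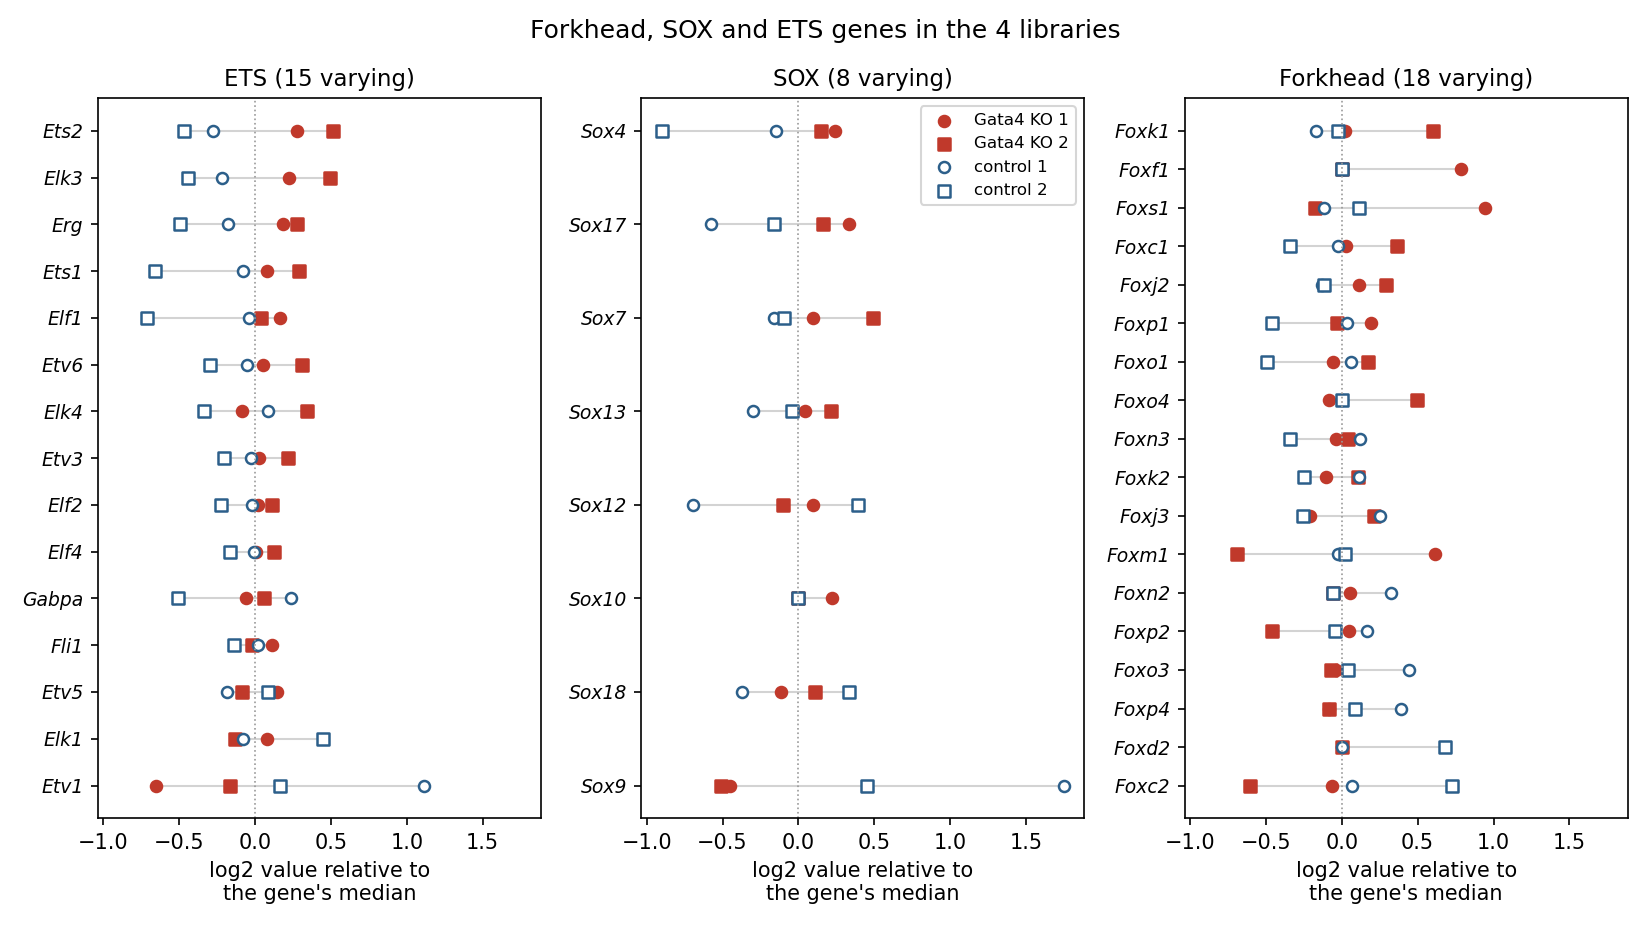
Log2 value relative to the gene's median in each library (x axis), for the 15 ETS, 8 SOX and 18 Fox genes that varied, with filled marks for Gata4 KO and open marks for control libraries. Ets2 lies at 0.28 and 0.52 in Gata4 KO, above its controls, and Sox9 at -0.45 and -0.51 in Gata4 KO, below its controls.

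The ETS family had the largest share of genes, among the 3 families, with both Gata4 KO libraries above both controls. Of its 15 varying genes, 13 had a positive difference, 9 (60%) were above without overlap and 1 (6.67%) had both below, beside 15.7% and 17.3% of all tested genes, with a median difference of 0.24. Without the first control the median was 0.46, and without the second 0.14, beside 0.07 and -0.06 over all genes tested in those settings. The sequences of the start regions of the 3 ETS genes with the lowest adjusted p among those higher in Gata4 KO are given here as examples of the genes described next. They are RefSeq windows of build GRCm38.p6, from 250 bases before to 50 bases after the annotated start, read 5′ to 3′ on the gene's strand. Capitals mark the letters GATA, the core bound by GATA factors, and GGAA, the ETS core, each searched on both strands, so that TTCC is a GGAA of the other strand.
Ets2 (chr16:95702157-95702456, plus strand): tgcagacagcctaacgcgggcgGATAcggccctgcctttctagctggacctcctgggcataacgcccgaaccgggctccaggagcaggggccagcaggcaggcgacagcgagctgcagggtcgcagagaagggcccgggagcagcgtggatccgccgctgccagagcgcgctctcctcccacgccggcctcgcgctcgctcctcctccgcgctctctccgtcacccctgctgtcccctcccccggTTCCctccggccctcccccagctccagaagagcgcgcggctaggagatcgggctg
Elk3 (chr10:93311110-93311409, minus strand): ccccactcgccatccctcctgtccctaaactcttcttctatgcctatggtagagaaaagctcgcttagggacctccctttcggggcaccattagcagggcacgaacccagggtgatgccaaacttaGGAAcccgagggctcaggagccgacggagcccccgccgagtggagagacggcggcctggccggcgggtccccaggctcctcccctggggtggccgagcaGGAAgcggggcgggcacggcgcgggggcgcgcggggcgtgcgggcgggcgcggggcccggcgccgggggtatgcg
Erg (chr16:95586544-95586843, minus strand): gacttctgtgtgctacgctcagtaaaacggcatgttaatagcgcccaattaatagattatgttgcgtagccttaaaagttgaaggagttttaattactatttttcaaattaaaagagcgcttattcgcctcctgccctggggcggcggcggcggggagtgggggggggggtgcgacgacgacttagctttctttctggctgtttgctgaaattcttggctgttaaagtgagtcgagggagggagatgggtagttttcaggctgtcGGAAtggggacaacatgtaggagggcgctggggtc
The Ets2 window holds 1 GATA, at base 23, and 1 TTCC, at base 246. Its RefSeq start lies 332 bases from the GENCODE start of the gene. The Elk3 window holds GGAA at bases 127 and 226 and no GATA letters, and the Erg window, 1 of 3 that RefSeq lists for this gene, holds GGAA at base 266 and no GATA letters. Of the 26 varying genes with a window, 6 held GATA (23.1%: Elf4, Ets2, Etv1, Foxn3, Foxp1 and Sox4), beside 57.9% of all 32851 windows. GGAA was in 24 of the 26 (92.3%), beside 96% of all windows. Such matches describe letters and not bound sites. The 26 genes count 1 window each, whereas the 32851 windows include several of some genes, so these shares are not like for like.

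Ets2, a ubiquitous ETS factor phosphorylated by ERK, lies on chromosome 16 from 95702075 to 95721051 on mm10 (ENSMUSG00000022895). It stood at 0.28 and 0.52 in the Gata4 KO libraries, against -0.28 and -0.47 in the controls. Both Gata4 KO libraries were above both controls, and the groups averaged 0.40 ± 0.17 in Gata4 KO and -0.37 ± 0.14 in control (SD, n = 2 each). The difference of 0.77 (SE 0.23), or 1.70-fold, did not pass the adjusted test (adjusted p = 0.495). Its close relative Ets1, which binds endothelial and lymphoid enhancers, stood at 0.08 and 0.29 in Gata4 KO, against -0.08 and -0.66 in control. The groups did not overlap, and the Ets1 difference of 0.56 (SE 0.29, adjusted p = 0.768) was 0.27 without the low second control and 0.85 without the first.

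Elk3, a ternary complex factor that represses its targets until ERK phosphorylates it, is on chromosome 10 from 93247414 to 93311135 (ENSMUSG00000008398). It stood at 0.22 and 0.49 in Gata4 KO, against -0.22 and -0.44 in control. The 4 values fell in the same order as those of Ets2, with a difference of 0.69 (SE 0.24, 1.61-fold, adjusted p = 0.557). That order was shared by Ets1, Erg, Etv3, Etv6, Elf2, Elf4 and Foxc1. The other 2 ternary complex factors overlapped between groups, with differences of 0.26 for Elk4 and -0.21 for the X-linked Elk1.

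Erg, which keeps endothelial junctions and identity genes active, lies on chromosome 16 from 95359169 to 95586593 (ENSMUSG00000040732). It stood at 0.18 and 0.27 in Gata4 KO, against -0.18 and -0.50 in control, a difference of 0.57 (SE 0.24, adjusted p = 0.652). Its closest relative Fli1, which overlaps with it in endothelial gene control, stood at 0.11 and -0.02 in Gata4 KO, against 0.02 and -0.14 in control. The Fli1 groups overlapped and their difference was 0.10 (SE 0.22). Both pairs of relatives have a physical neighbour from the other pair: Erg and Ets2 lie 115.5 kb apart on chromosome 16, with differences of 0.57 and 0.77, and Fli1 and Ets1 lie 93.4 kb apart on chromosome 9, with differences of 0.10 and 0.56.

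Etv6, a repressor of the TEL group needed for blood formation, stood at 0.06 and 0.31 in Gata4 KO, against -0.06 and -0.30 in control. Elf1, an activator in blood and endothelium, stood at 0.16 and 0.04 in Gata4 KO, against -0.04 and -0.71 in control. In both genes the groups did not overlap, with differences of 0.36 for Etv6 (SE 0.24, adjusted p = 0.842) and 0.47 for Elf1 (SE 0.30, adjusted p = 0.842). Without the second control the difference was 0.24 for Etv6 and 0.14 for Elf1, and without the second Gata4 KO library that of Etv6 was 0.23. Elf2, the X-linked Elf4 and the repressor Etv3 were also without overlap, at smaller differences of 0.19, 0.15 and 0.24. The first Gata4 KO library and first control lay close: 0.017 and -0.017 for Elf2, 0.006 and -0.006 for Elf4, 0.024 and -0.024 for Etv3. Gabpa, which drives genes of mitochondria and basic cell upkeep, stood at -0.06 and 0.06 in Gata4 KO, against 0.24 and -0.51 in control. Its controls lay on both sides of the Gata4 KO values, and the difference was 0.14 (SE 0.32).

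The controls differed from each other over the ETS genes. The second control was the lowest of the 4 libraries in 12 of the 15 ETS genes (80%), beside 30.4% of all tested genes, and it lay below the first control in 13 (86.7%), beside 59.0% of all tested genes. Library medians over the 15 genes were 0.08 and 0.13 in Gata4 KO and -0.04 and -0.30 in control. Counts were therefore repeated with the second control left out: 10 of 15 ETS genes then had both Gata4 KO libraries above the remaining control, beside 24.9% of all tested genes. With the first control left out, 12 of 15 did, beside 36.9% of all tested genes.

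Etv1 was the ETS gene with both Gata4 KO libraries below both controls. This factor of the PEA3 group, which acts in neurons and in the fast-conducting tissue of the heart, lies on chromosome 12 from 38779380 to 38870484 (ENSMUSG00000004151). It stood at -0.65 and -0.16 in Gata4 KO, against 1.11 and 0.16 in control. Both Gata4 KO libraries were below both controls, and the difference of -1.05 (SE 0.40), or 2.07-fold lower, did not pass the adjusted test (adjusted p = 0.601). Without the first control it was -0.57. Etv5, of the same group, overlapped between groups at 0.08.

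**Figure D3:**
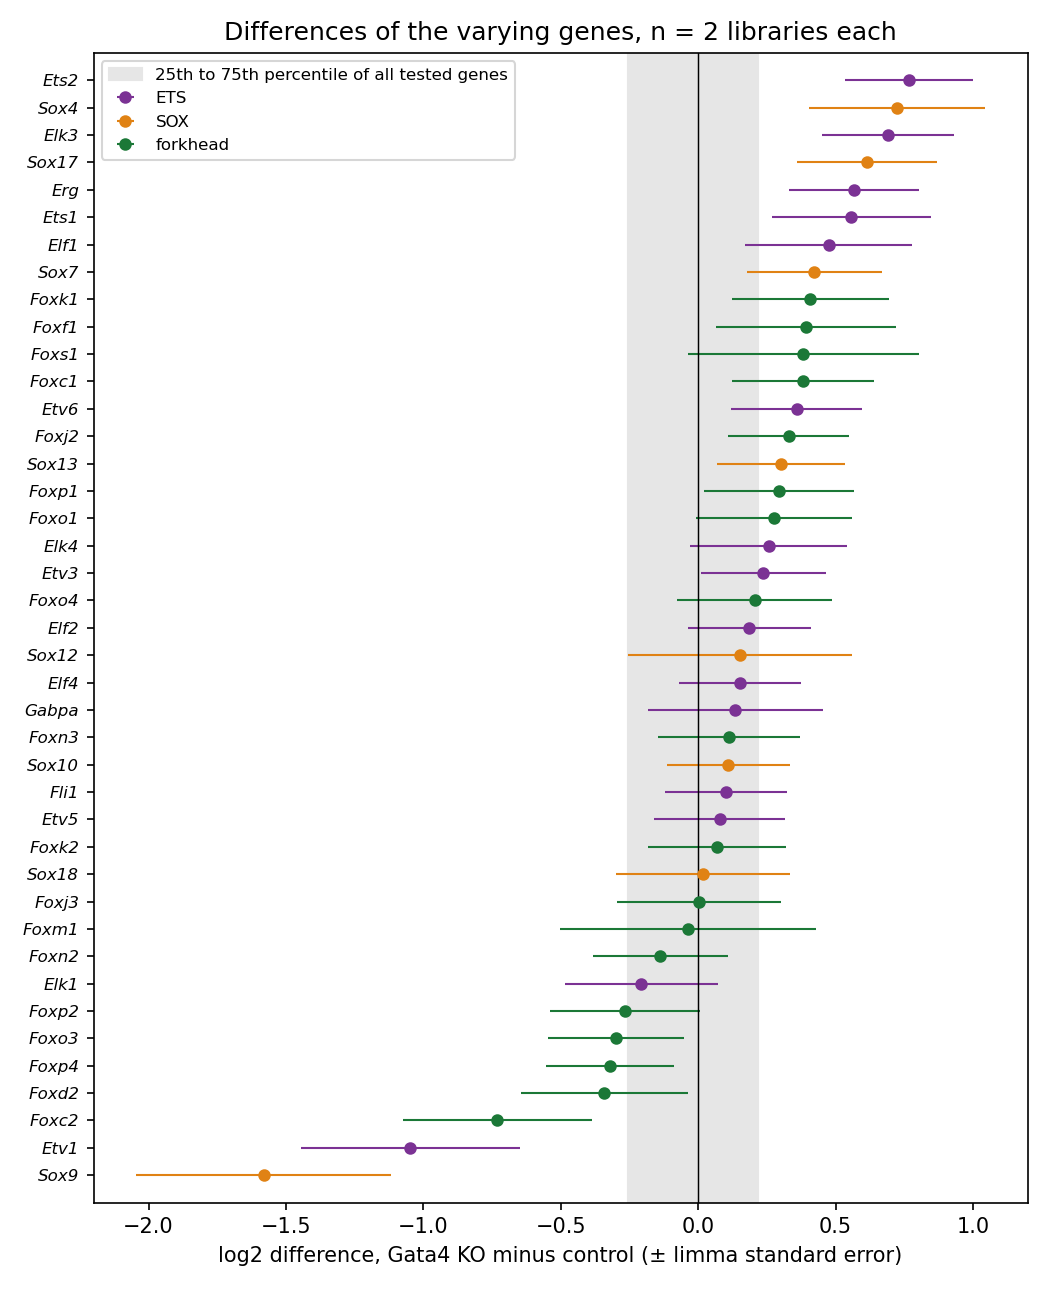
Log2 difference, Gata4 KO minus control, of the 41 varying genes by family, with bars for the standard error from limma and a band from the 25th to the 75th percentile of all tested genes (-0.26 to 0.22). ETS genes lie mostly right of 0, with Etv1 at -1.05 apart from them, and Sox9 at -1.58 is the lowest of all 41.

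In the SOX family, 7 of the 8 varying genes had a positive difference and Sox9 a negative one. Both Gata4 KO libraries were above both controls in 4 (50%) and below in 1 (12.5%), beside 15.7% above and 17.3% below among all tested genes, with a median difference of 0.23. That median was 0.39 without the first Gata4 KO library, 0.14 without the first control and 0.40 without the second. Here the first control, not the second, was the lowest library, in 5 of 8 genes (62.5%) beside 14.7% of all tested genes. The SoxF factors came first in role. Sox17, of arterial endothelium, is on chromosome 1 from 4490931 to 4497354 (ENSMUSG00000025902) and stood at 0.33 and 0.16 in Gata4 KO, against -0.57 and -0.16 in control. Sox7 stood at 0.10 and 0.49 in Gata4 KO, against -0.16 and -0.10 in control. Neither gene overlapped between groups, with differences of 0.61 (SE 0.26, adjusted p = 0.650) for Sox17 and 0.42 (SE 0.25, adjusted p = 0.824) for Sox7. Without the first control the Sox17 difference was 0.41, and without the second Gata4 KO library that of Sox7 was 0.23. Sox18, which starts lymphatic fate through Prox1, stood at -0.11 and 0.11 in Gata4 KO, against -0.37 and 0.33 in control. Its difference was 0.02 (SE 0.32), and its sign changed to -0.02 when libraries were scaled on endothelial identity genes.

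Sox4, a SoxC factor of progenitor cells and of the heart's outflow tract, is on chromosome 13 from 28948919 to 28953713 (ENSMUSG00000076431). It stood at 0.24 and 0.15 in Gata4 KO, against -0.15 and -0.90 in control, a difference of 0.72 (SE 0.32, adjusted p = 0.683). Without the low second control the difference was 0.35, and without the first control it was 1.10. Sox12, also of the SoxC group, overlapped between groups at 0.15. Sox13, a SoxD factor, did not overlap, at 0.30.

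Sox9 had the largest difference of the 41 genes. It directs cartilage and matrix programmes and, in the heart, valve mesenchyme, and lies on chromosome 11 from 112782224 to 112787760 (ENSMUSG00000000567). It stood at -0.45 and -0.51 in Gata4 KO, against 1.75 and 0.45 in control. The Gata4 KO libraries were close together and both below the controls, which were far apart: the groups averaged -0.48 ± 0.04 in Gata4 KO and 1.10 ± 0.92 in control (SD, n = 2 each). The difference of -1.58 (SE 0.46), or 2.99-fold lower, had an adjusted p of 0.480. Without the first control it was -0.93, and without the second -2.23. Sox10, the SoxE factor of neural crest and Schwann cells, stood at 0.22 and its lowest value in Gata4 KO and at its lowest value in both controls. Of 10 neural crest and glial genes, Foxd3 among them, 4 had one value. Each of the other 6 was above its lowest value in a single library, so its groups could not separate, and nothing is concluded from them.

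Most markers of several other cell types lay, like Sox9, Etv1 and Foxc2, below both controls in both Gata4 KO libraries. All 18 fibroblast markers, among them collagen genes, were below both controls in both Gata4 KO libraries, with a median difference of -1.65 and list means of -0.40 and -1.05 in Gata4 KO and 1.31 and 0.40 in control. The first control was highest in this list as it was for Sox9 and Etv1, and also in the macrophage list (means of 0.63 and 0.25 in control). Among all tested genes, 59.0% had the second control below the first. The lymphatic and endocardial means were instead highest in the second control, at 0.63 and 0.50. Foxc2 was also highest in the second control, at 0.73, against 0.06 in the first. Of the varying markers, 8 of 10 lymphatic ones (median -1.46), 10 of 13 endocardial ones (median -0.97) and 11 of 16 macrophage ones (median -0.98) were also below both controls. Cardiomyocyte markers were below in 9 of 16, at a median of -0.39, and the other 7 overlapped between groups. The largest differences there were those of Myl7 and Sln, at least 25.7-fold and 9.84-fold lower. Both sat at their floor in both Gata4 KO libraries. Pericyte and smooth muscle markers were above in 2 and below in 4 of 12, at a median of -0.02, and 8 of 12 lymphocyte markers had one value. Beside these counts, 17.3% of all tested genes were below both controls and 15.7% above. In the fibroblast, lymphatic and cardiomyocyte lists no marker was held at one value, and Hapln1 of the endocardial and Fcgr1 of the macrophage list were. The part of other cells in the values of Sox9, Etv1 and Foxc2 was not tested. In such bulk libraries fewer cells of a type and less RNA per cell cannot be told apart.

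**Figure D4:**
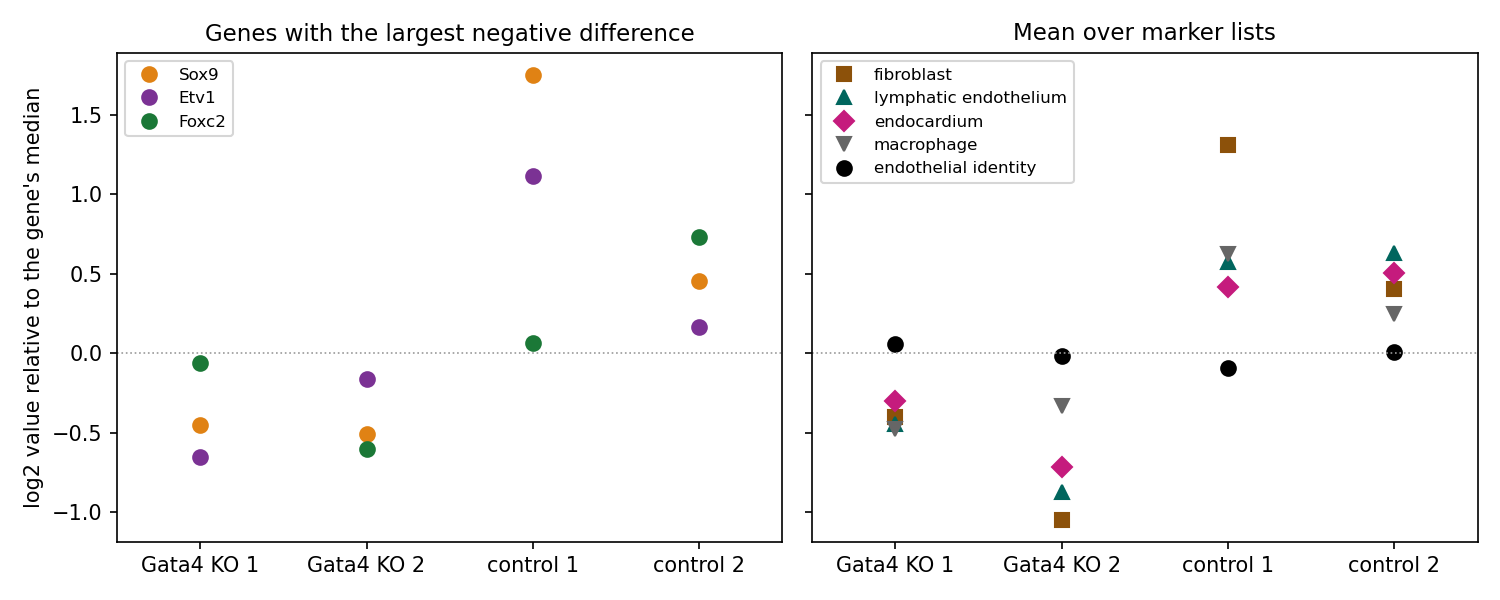
Log2 values by library (y axis) of the 3 genes with the largest negative difference (Sox9, Etv1 and Foxc2) beside the library means of marker lists. The fibroblast mean lies at -0.40 and -1.05 in Gata4 KO and at 1.31 and 0.40 in control.

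The Fox family had as many genes above as below the controls. Of its 18 varying genes, 3 (16.7%) had both Gata4 KO libraries above both controls, 3 (16.7%) had both below and 12 overlapped, with a median difference of 0.09. These shares are close to those of all tested genes. Without the first control, 8 of 18 were above the remaining one and 4 below, beside 36.9% above and 31% below among all tested genes, and the median was 0.255. Without the second control, 3 were above and 8 below, beside 24.9% above and 41.5% below, and the median was -0.016. Over all genes tested in those settings, the median was 0.07 without the first control and -0.06 without the second. The pair Foxc1 and Foxc2, which act together in vascular, lymphatic and cardiac outflow development, differed in opposite directions. Foxc2 is on chromosome 8 from 121116171 to 121118895 (ENSMUSG00000046714) and stood at -0.06 and -0.60 in Gata4 KO, against 0.06 and 0.73 in control. Foxc1 is on chromosome 13 from 31806633 to 31812476 (ENSMUSG00000050295) and stood at 0.03 and 0.37 in Gata4 KO, against -0.03 and -0.34 in control. In neither gene did the groups overlap, and the differences were -0.73 (SE 0.34, adjusted p = 0.718) for Foxc2 and 0.38 (SE 0.26, adjusted p = 0.842) for Foxc1. Without the second control the Foxc2 difference was -0.40 and that of Foxc1 0.22, and without the second Gata4 KO library they were -0.46 and 0.21. Foxf1, of lung mesenchyme and vessels and 28 kb from Foxc2, was above its lowest value only in the first Gata4 KO library, at 0.79.

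The Foxo factors, which insulin and growth factor signals keep out of the nucleus, gave no common direction. Foxo1 stood at -0.06 and 0.17 in Gata4 KO, against 0.06 and -0.49 in control. Foxo3 stood at -0.04 and -0.07 in Gata4 KO, against 0.45 and 0.04 in control. The Foxo1 groups overlapped, with a difference of 0.27 (SE 0.28) that was 0.0008 without the second control, and the Foxo3 groups did not, with a difference of -0.30 (SE 0.25, adjusted p = 0.850) that was -0.10 without the first control and -0.50 without the second. The X-linked Foxo4 overlapped at 0.21. Foxp1, which acts in cardiac and endothelial proliferation, stood at 0.19 and -0.03 in Gata4 KO, against 0.03 and -0.46 in control, and its groups overlapped at a difference of 0.29 (SE 0.27), which was 0.05 without the second control and 0.54 without the first. Foxp2 overlapped at -0.27, and Foxp4 was at its lowest value in both Gata4 KO libraries, at least 1.25-fold lower than in control.

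Foxm1, which drives mitotic genes, stood at 0.62 and -0.69 in Gata4 KO, against -0.02 and 0.02 in control. The Gata4 KO libraries were on opposite sides of the controls and the difference was -0.04 (SE 0.47). Foxj2 stood at 0.12 and 0.29 in Gata4 KO, against -0.13 and -0.12 in control, without overlap (0.33, SE 0.22, adjusted p = 0.842). Foxk1, a factor of glucose use and autophagy, was likewise without overlap at 0.41. It stood at 0.023 and 0.60 in Gata4 KO, against -0.17 and -0.023 in control. Without the second Gata4 KO library its difference was 0.12. The remaining varying Fox genes overlapped between groups, with differences of 0.07 for Foxk2, 0.003 for Foxj3, -0.14 for Foxn2, 0.11 for Foxn3 and 0.38 for Foxs1. Foxd2 was above its lowest value only in the second control, at 0.68.

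Genes that textbooks place under these factors were counted in the same way, and none passed the adjusted test. All counts are to be read beside the 15.7% of all tested genes above and the 17.3% below. The lists were written with earlier results of these data known, so their counts are descriptive only. Some lists share genes: Klf2 and Klf6 are in the FOXO and immediate early lists, and Cldn5 and Egfl7 in the ETS-bound and SoxF lists. Of 20 targets of ERK and the ternary complex factors, 14 had both Gata4 KO libraries above both controls and 1 had both below, with a median difference of 0.56. The lowest adjusted p among them belonged to the immediate early factors Egr3 (1.95) and Egr2 (1.11) and the ERK inhibitor Spry4 (0.93). Immediate early genes as a list, which shares 8 genes with the 20 targets, were above in 19 of 23, at a median of 0.77 and with list means of 0.24 and 0.43 in Gata4 KO and -0.49 and -0.36 in control, and their part in the values of Ets2 and Elk3 was not tested. Of 30 FOXO targets, 12 were above and 4 below, with a median of 0.20, and the 3 genes of lowest adjusted p were Cited2 (0.83), the growth inhibitor Tob1 (0.80) and the mitophagy kinase Pink1 (0.73). Of 25 ETS-bound endothelial genes, 19 of them also in the identity list, 6 were above and 2 below, at a median of 0.09. The tight-junction gene Cldn5 (1.03), the homeobox gene Hhex (0.85) and Vwf of the clotting system (-0.85) led that list. Of 17 genes linked to SoxF factors, 6 were above and 3 below, at a median of 0.08, led by lymphatic Prox1 (-1.63), the adhesion gene Vcam1 (-1.09) and the arterial connexin gene Gja5 (-0.93). Prox1 is also in the lymphatic and Vcam1 in the endocardial marker list, most of whose genes were lower in Gata4 KO. Of 18 mitotic FOXM1 targets, 6 had one value, 1 was above and 3 were below, at a median of -0.17, with the lowest adjusted p in Cdc20 (-0.63), Cenpa (0.56) and Ccnb2 (-0.72).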

How the data were processed

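RNA was sequenced from 4 libraries, 2 Gata4 KO and 2 control, grouped by the labels. A pair of deposited tables gives a log2 value for every library, a log2 fold change and a signed fold. Gene models were those of Ensembl, per the file headers, and reads were placed on mm10, per the submitters' processing notes. The aligner, the counting, the scale before the logarithm and any normalization were not given in the sources used here, so the depth of each library is unknown. The deposited log2 values were centred on each gene's median. Ties at a gene's lowest value (tolerance 2e-06) mark a floor set before the logarithm, so a fold against such a group is given as "at least". Of 38087 joined genes, 23617 had one value in all libraries and 14470 were tested by limma 3.58.1 under R 4.3.3, using lmFit and eBayes without trend, two-sided, with Benjamini-Hochberg adjustment over all 14470. The scripts were tested on simulated data. Coordinates are from GENCODE M21, which lists 81 of the 83 genes.

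Members and gene lists were chosen with earlier results of these data known. Genes described in full were 22 endothelial or developmental members set by name, where they varied, and the 12 varying members with the lowest p. The others are given by their difference, and the other lists by the 3 genes of lowest p. Separate animals behind the libraries are not stated, so a p measures only library-to-library spread, which may be technical. The alternatives were a mean trend, tied genes left out, library medians set to 0 over all tested or over endothelial identity genes, a robust prior, and each library left out. Counts of non-overlapping genes with each library left out were added after seeing the data.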

Additional observations from a re-analysis of the deposited data

How the results depend on the processing

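The count of all tested genes past the adjusted threshold was 0 and became 27 with a mean trend in the variance prior, 51 with tied genes left out, 7 with library medians over tested genes set to 0, 8 with those over endothelial identity genes set to 0, 7 with a robust prior, and 0 with any library left out. None of the Fox, SOX and ETS genes passed in any of these settings, and the lowest adjusted p was 0.181, for Sox9 with tied genes left out. With 1 library left out in turn, the genes at an unadjusted p under 0.05 ranged from 275 to 874 higher and from 358 to 1398 lower, and those of the 3 families from 1 to 7. The median difference ranged from -0.016 to 0.255 for Fox, 0.14 to 0.40 for SOX and 0.14 to 0.46 for ETS genes. Fox genes with Gata4 KO above control ranged from 3 to 8 (16.7% to 44.4%), beside 15.7% to 36.9% of all tested genes. The sign changed in 3 of the 23 genes given in full: Gabpa ranged from -0.24 to 0.51, Foxm1 from -0.69 to 0.62, and Sox18 from -0.33 to 0.37, with -0.018 under scaling on endothelial identity genes. Over all 41 varying genes, 12 changed sign. The cause was not tested. Foxf1 and Sox10 gave no value in the settings that left their ties or their single varying library out. With depth unknown, what the depth limits cannot be stated. No paired analysis was possible because the numbers were given by accession order alone and pair no libraries.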
